A study of Mus musculus with 12 samples.

Results

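Glycolysis and hypoxia-response genes were followed across 4 treatments of activated CD4+ T cells. The set holds 38 genes, chosen by symbol from the 45777 genes of the expression table, and each of the 38 symbols was found there. They were ordered by role. There were 2 glucose transporters, 11 genes of upper glycolysis (from hexokinase to triosephosphate isomerase), 7 of lower glycolysis (from glyceraldehyde phosphate dehydrogenase to pyruvate kinase), 4 that handle lactate and pyruvate, 3 for the oxygen-responsive factor HIF-1 and its feedback, and 11 HIF-1 targets outside glycolysis. All 38 passed the filter on low values (at least 0.5 FPKM in at least 3 samples), as did 15197 genes in all. The lowest count of any of the 38 in any sample was 95 reads, for P4ha2.

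CD4+ T cells had been isolated with magnetic beads from spleens of wild-type C57BL/6 mice, aged 7 weeks per the labels, and stimulated with anti-CD3 at 0.5 µg/ml for 3 days. The Control group received anti-CD3 without a drug, and the other groups received it with metformin, with FK506 (tacrolimus), or with both drugs (Metformin+FK506, called the combination here). Metformin is an antidiabetic drug that acts on mitochondrial respiration, and FK506 is an immunosuppressant that blocks calcineurin, a phosphatase of T cell receptor signalling. Poly(A) RNA was sequenced from 3 samples per group, 12 in all, and neither the drug doses of these cultures nor whether the 3 samples came from separate mice is given in the sources used here. A p-value therefore measures only the spread between these samples, which may be technical.

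Glycolysis breaks glucose down to pyruvate, and activated T cells send much of that pyruvate to lactate even where oxygen is present. HIF-1 is a transcription factor whose alpha subunit, encoded by Hif1a, is destroyed through prolyl hydroxylases when oxygen is plentiful. It accumulates when oxygen is low or after T cell receptor signalling, and then drives genes of glucose uptake, glycolysis, lactate export and mitophagy, together with the hydroxylase genes that limit it.

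HIF-1 binds DNA at the core letters ACGTG or GCGTG. The promoters of the members were searched for these letters on both strands, in the 250 bases before each RefSeq start (GRCm38.p6). RefSeq promoters were found for 35 members, and 32 of them held at least 1 match in at least 1 of their promoters. Promoters without a match were the only ones listed for Gpi1, Tpi1 and Eno2, and none was listed for Slc2a3, Bnip3l and Ndrg1. A match stood in 41 of the 54 promoters of members (75.9%), in 9358 of the 21263 promoters of protein-coding genes (44%) and in 12679 of all 32851 promoters (38.6%). Promoters of 1 gene can overlap, so these shares are a description. The promoters of Ldha and Bnip3 are shown because they held the most matches, 5 each, a number reached by 1.32% of protein-coding promoters. Capitals mark the core on either strand. The letters CACGTG hold it on both strands, count as 2 matches and are also the E-box bound by other factors. The Ldha promoter lies at chr7:46845554-46845803 on the plus strand and the Bnip3 promoter at chr7:138909507-138909756 on the minus strand, and each is written 5′ to 3′ toward its start.
Ldha: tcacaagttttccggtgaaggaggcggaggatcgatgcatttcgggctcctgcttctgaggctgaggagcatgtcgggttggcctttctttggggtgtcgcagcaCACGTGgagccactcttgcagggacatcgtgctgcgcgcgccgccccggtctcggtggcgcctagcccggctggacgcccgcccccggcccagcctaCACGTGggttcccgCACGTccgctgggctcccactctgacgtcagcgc
Bnip3: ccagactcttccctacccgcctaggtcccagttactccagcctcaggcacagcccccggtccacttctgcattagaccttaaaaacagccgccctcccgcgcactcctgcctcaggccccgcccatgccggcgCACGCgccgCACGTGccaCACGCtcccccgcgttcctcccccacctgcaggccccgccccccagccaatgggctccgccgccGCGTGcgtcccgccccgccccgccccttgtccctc
The Ldha promoter has 3 separate sites, whose first bases lie 145, 48 and 34 bases before the start. The Bnip3 promoter has 4, at 117, 108, 99 and 35 bases. Binding of HIF-1 was not measured in these samples.

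Between 43402632 and 64290105 reads were counted per sample. Levels are given as FPKM (fragments per kilobase of transcript, scaled also to library size) and differences as log2 fold changes of the read counts from edgeR's quasi-likelihood test with its standard error (SE). A gene was called where its p, adjusted over all 15197 genes by Benjamini-Hochberg, was under 0.05. The 12 T cell markers summed to between 2408 and 2453 FPKM in Control and between 2327 and 2412 with metformin. They summed to between 2073 and 2129 with FK506 and between 2237 and 2284 under both drugs, so T cell transcripts were abundant in every group. Markers of other cells moved with FK506. The 10 B cell markers summed to between 62.0 and 66.2 FPKM in Control, between 87.4 and 101.8 with metformin, between 903.8 and 944.3 with FK506 and between 435.8 and 468.1 under both drugs. The 10 myeloid markers summed to between 4.40 and 4.57 FPKM in Control, between 8.73 and 10.0 with metformin, between 1227 and 1260 with FK506 and between 782.0 and 911.6 under both drugs, and C1qa, C1qc, Adgre1 and Fcgr1 were listed at 0 in Control. Lyz2 made up most of the myeloid sum in both groups with FK506, and the other 9 markers, a sum taken after these values were seen, came to between 249 and 267.6 FPKM with FK506 and between 287.2 and 302 FPKM under both drugs. Markers of CD8 T and NK cells summed higher in every drug group than in Control. The 6 of them summed to between 11.3 and 13.5 FPKM in Control, between 30.8 and 37.1 with metformin, between 27.0 and 28.4 with FK506 and between 26.9 and 28.9 under both drugs. All 4 that were tested were higher with metformin than in Control (all genes: 28.6%). With FK506, 2 of the 4 were higher (all genes: 41.3%), 1 was lower (all genes: 39.6%) and 1 was not called. The part of these other cells in the results on metformin and FK506 was not tested, and in bulk RNA fewer T cells and less RNA of these genes per T cell cannot be told apart. As an alternative added after these values were seen, all samples were rescaled to the T cell markers.

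**Figure D1:**
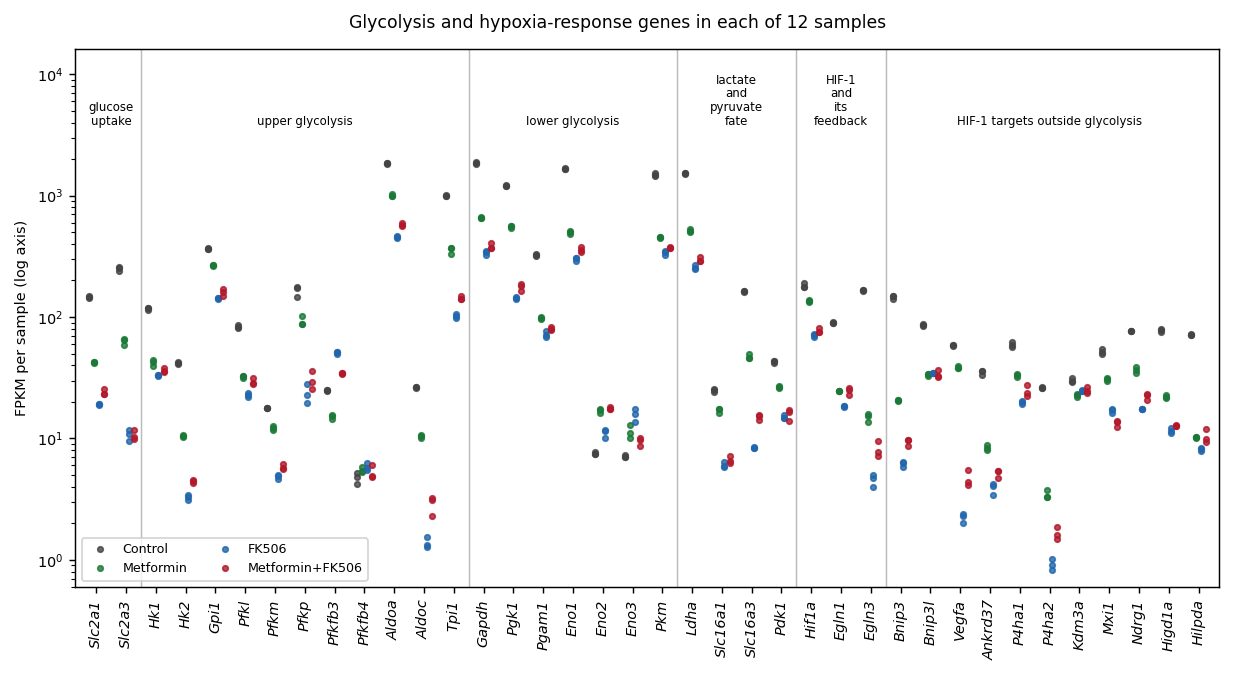
FPKM of each of the 38 genes on a log axis, with 1 point per sample, coloured by treatment and ordered by role. Control (dark grey) is highest for 34 genes (3580 of all 15197 genes tested), while Pfkfb3, Pfkfb4, Eno2 and Eno3 do not follow the others.

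Each drug on its own lowered most of the set. Summed over the 38 genes, the level was between 13427 and 13633 FPKM in Control, between 5279 and 5300 with metformin, between 2553 and 2657 with FK506 and between 3000 and 3186 under both drugs. No group overlapped another. The glycolytic enzymes alone held 2.45% ± 0.0218 (SD, n = 3) of all FPKM in Control, 0.936% ± 0.0114 with metformin, 0.570% ± 0.0103 with FK506 and 0.685% ± 0.0163 under both drugs. Gapdh, Eno1, Ldha, Pgk1 and Aldoa have many pseudogene copies in the mouse, and how reads shared with such copies were counted is not given in the sources used here, so their values are uncertain. Without these 5 genes the shares were 0.766%, 0.285%, 0.203% and 0.234%, in the same order of groups.

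**Figure D2:**
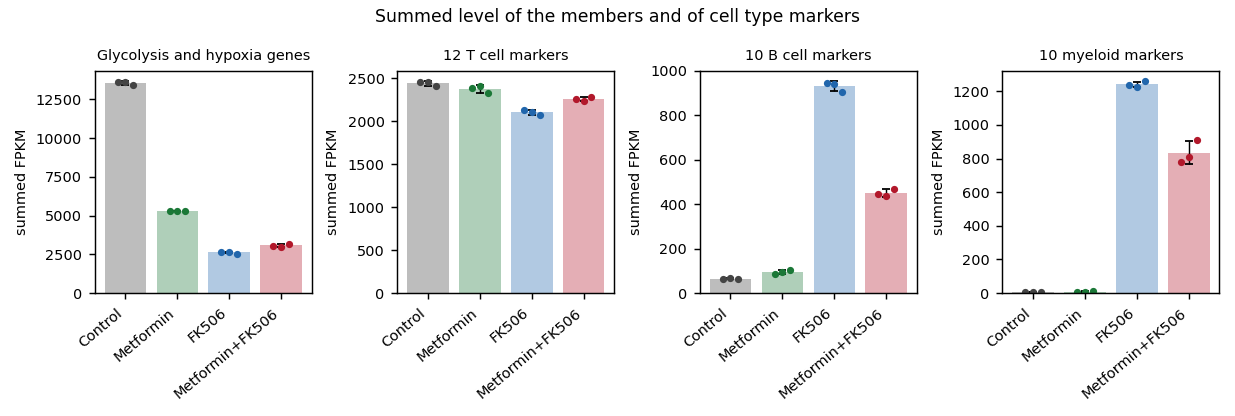
Summed FPKM of the 38 genes and of the T cell, B cell and myeloid markers, with bars for the mean, error bars for the SD of 3 samples and points for samples. The 38 genes fell to between 2553 and 3186 FPKM with FK506 and the combination, the T cell markers stayed above 2073 FPKM, and the B cell sum and the myeloid sum, most of which was Lyz2, were highest with FK506.

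Metformin alone was compared with Control to see what it did to these genes without calcineurin inhibition. It lowered 35 of the 38 (all genes tested: 27.4% lower) and raised 3, Eno2, Eno3 and Pfkfb4 (all genes: 28.6% higher). The Pfkfb4 call was lost under several alternatives. The change was at least 2-fold for 23 of the lowered genes (all genes: 5.65%) and for 1 of the raised, Eno2 (all genes: 4.81%). The median log2 fold change was -1.40 over the 38 genes and 0.01 over all genes tested. The deepest falls were those of Egln3, P4ha2 and Bnip3.

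FK506 alone lowered 34 members (all genes: 39.6%), of which 33 fell at least 2-fold (all genes: 16.7%). It raised Eno3, Pfkfb3 and Eno2 (all genes: 41.3%), none of them 2-fold (all genes: 19.8%). Pfkfb4 was not called (log2 -0.02), although its samples were apart, and it was called higher with limma on log2(FPKM + 1) (0.25, adjusted p = 0.0194) and after rescaling to the T cell markers (0.47, adjusted p = 7.14e-05). The median was -2.44, against 0.02 over all genes, and the deepest falls were those of Egln3, P4ha2 and Vegfa. The combination gave nearly the same counts against the same Control samples. It lowered 34 members (all genes: 39.6%) and 33 of them at least 2-fold (all genes: 17.3%), while Eno2, Eno3 and Pfkfb3 were higher (all genes: 42.1%) and Eno2 at least 2-fold (all genes: 20%). The median was -2.19, against 0.03 over all genes.

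Adding FK506 to metformin lowered 34 members (all genes: 37.9%), 14 of them at least 2-fold (all genes: 14.6%). Eno3 and Pfkfb4 were among the 34, although metformin alone had raised them over Control. Their samples overlapped between the groups, and both calls were lost after rescaling to the T cell markers (Eno3 -0.044, adjusted p = 0.618, and Pfkfb4 -0.097, adjusted p = 0.296), that of Pfkfb4 also with limma (adjusted p = 0.589 with log2(FPKM + 1)). The only member that rose was Pfkfb3 (all genes: 40.3%), which also passed 2-fold (all genes: 17.6%), and Eno2, Kdm3a and Hilpda were not called. Without combination 3, Hilpda went from -0.14 to -0.23 and was called lower (adjusted p = 0.0038), and Kdm3a was called higher with limma (0.13, adjusted p = 0.0183 with log2(FPKM + 1)). Eno2 was called lower without a filter on low values (-0.14, adjusted p = 0.0494). The median was -0.94, against 0.02 over all genes. With the samples rescaled to the T cell markers, 28 members were lower (all genes so rescaled: 26%) and 5 higher (all genes so rescaled: 53.8%), the higher ones being Pfkfb3, Kdm3a, Eno2, Egln1 and Bnip3l. Hk1 (-0.068, adjusted p = 0.122) and Pfkl (-0.0086, adjusted p = 0.856) also lost their calls there.

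Adding metformin to FK506 went the other way. It raised 30 members (all genes: 15.6%) and lowered 3, Pfkfb3, Eno3 and Mxi1 (all genes: 15%), while Slc2a3, Pfkfb4, Pdk1, Bnip3l and Kdm3a were not called. Pfkfb4 went from -0.15 to -0.24 and was called lower without combination 1 (adjusted p = 0.0333). These rises were small. The median was 0.31, against 0.0019 over all genes, and only Aldoc and Vegfa rose at least 2-fold (all genes: 1.91%), with no fall of that size (all genes: 2.3%). From FK506 to the combination the B cell marker sum went down and the T cell marker sum went up. Of the 9 myeloid markers tested, Lyz2 was lower, Cd68, C1qb and C1qc were higher and 5 were not called (median log2 0.16). Rescaled to the T cell markers, 23 members were higher (all genes so rescaled: 8.47%) and 4 lower (all genes so rescaled: 29.8%), with Pfkfb4 as the added one (-0.25, adjusted p = 0.0248), and the median was 0.20, against -0.10 over all genes. Hk1, Gpi1, Pgam1, Pkm, Slc16a1, Hif1a and Higd1a were the 7 members no longer called higher. The samples of Pfkp overlapped between these groups, and its call was lost with limma (adjusted p = 0.0717 with log2(FPKM + 1) and adjusted p = 0.0767 with log2(FPKM + 0.1)). The call of Higd1a was lost with DESeq2 (adjusted p = 0.0533), and that of Slc16a1 with RLE factors (adjusted p = 0.0579), upper quartile factors (adjusted p = 0.0501) and limma (adjusted p = 0.127 with log2(FPKM + 1)). Without a filter on low values, Slc16a1 (adjusted p = 0.131), Higd1a (adjusted p = 0.12) and Hif1a (adjusted p = 0.0597) were not called.

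The glucose transporters fell together. Slc2a1 (GLUT1, gene ID 20525, chromosome 4), the basal glucose transporter of T cells, stood at 143, 149 and 147 FPKM in Control and at 42.0, 42.7 and 42.8 FPKM with metformin. It stood at 19.4, 19.1 and 18.9 FPKM with FK506 and at 23.2, 23.3 and 25.6 FPKM with the combination. No sample of a group reached those of another. Slc2a1 was 3.53-fold lower with metformin than in Control (log2 -1.82, SE 0.036, adjusted p = 1.13e-15), 8.92-fold lower with FK506 and 1.27-fold higher with the combination than with FK506 (log2 0.35, SE 0.037, adjusted p = 2.87e-06). Slc2a3 (GLUT3, gene ID 20527, chromosome 6), a transporter of higher glucose affinity, was the more abundant of the pair in Control, at 240, 258 and 253 FPKM. Its levels were 65.0, 58.8 and 66.4 FPKM with metformin, 10.9, 11.7 and 9.46 FPKM with FK506 and 10.3, 9.87 and 11.8 FPKM with the combination. The last pair of groups overlapped, with a log2 difference of 0.00 (SE 0.062, adjusted p = 0.989), and Slc2a3 was 27.3-fold lower with FK506 than in Control.

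In upper glycolysis, the steps that trap and split the sugar, 10 of 11 genes fell with metformin (all genes: 27.4%) and 9 of 11 with FK506 (all genes: 39.6%). Hk2 (gene ID 15277, chromosome 6), the inducible hexokinase that phosphorylates glucose, was at 41.1, 42.3 and 41.8 FPKM in Control and at 10.3, 10.5 and 10.7 FPKM with metformin. Its levels were 3.11, 3.43 and 3.31 FPKM with FK506 and 4.50, 4.28 and 4.55 FPKM with the combination. The 4 groups of Hk2 values did not overlap, and the gene was 4.07-fold lower with metformin (log2 -2.03, SE 0.038, adjusted p = 6.13e-16), 14.9-fold lower with FK506 and 1.38-fold higher with the combination than with FK506. Hk1, the constitutive hexokinase, went from 117 ± 2.07 FPKM (SD, n = 3, as for the values that follow) in Control to 41.9 ± 2.12 with metformin, 33.0 ± 0.439 with FK506 and 36.5 ± 1.62 under both drugs. Gpi1, glucose phosphate isomerase, fell less, from 368 ± 3.16 FPKM to 266 ± 3.23 with metformin and 142 ± 1.47 with FK506.

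The phosphofructokinases, which commit the sugar to glycolysis, differed in how far they fell. With metformin the log2 fold change was -1.41 for Pfkl (SE 0.041), -0.68 for Pfkp (SE 0.034) and -0.59 for Pfkm (SE 0.051), and with FK506 it was -2.08, -2.70 and -2.09. Aldoa, the main aldolase here, fell from 1845 ± 20.0 FPKM in Control to 1011 ± 21.2 with metformin and 456 ± 9.44 with FK506, and stood at 577 ± 18.3 with the combination. Tpi1, triosephosphate isomerase, fell from 994 ± 16.0 FPKM to 355 ± 22.8 and 102 ± 4.48, and stood at 143 ± 4.88 with the combination. Aldoc (gene ID 11676, chromosome 11), a second aldolase of much lower level, was at 26.5, 26.6 and 25.9 FPKM in Control, at 10.4, 10.1 and 10.7 FPKM with metformin, at 1.32, 1.28 and 1.54 FPKM with FK506 and at 2.31, 3.13 and 3.25 FPKM with the combination. Its lowest combination sample lay above its highest FK506 sample, and the rise was 2.14-fold (log2 1.10, SE 0.11, adjusted p = 1.68e-06).

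Pfkfb3 and Pfkfb4 encode bifunctional enzymes that set the level of the allosteric activator of phosphofructokinase, and neither followed the rest of upper glycolysis. Pfkfb3 (gene ID 170768, chromosome 2) was at 25.0, 25.2 and 24.5 FPKM in Control, at 15.4, 14.6 and 15.6 FPKM with metformin, at 49.8, 51.6 and 51.2 FPKM with FK506 and at 34.9, 33.7 and 34.8 FPKM with the combination. FK506 was the highest group and metformin the lowest, with no overlap. FK506 raised it 1.76-fold over Control (log2 0.82, SE 0.035, adjusted p = 1.35e-12), and metformin lowered it both without FK506 (log2 -0.76, SE 0.036) and with it (log2 -0.54, SE 0.034, adjusted p = 9.08e-09). The difference between these metformin effects was 0.22 (SE 0.049, adjusted p = 0.00146), and 0.016 (adjusted p = 0.828) after rescaling to the T cell markers. Pfkfb4 (gene ID 270198, chromosome 9) was at 5.21, 4.84 and 4.24 FPKM in Control, 5.34, 5.78 and 5.37 FPKM with metformin, 5.50, 6.29 and 5.72 FPKM with FK506 and 6.09, 4.82 and 4.94 FPKM with the combination. Only the Control and metformin or FK506 samples were apart. The metformin call (log2 0.21, SE 0.082, adjusted p = 0.0399) was lost without Control 2 or 3, any of the metformin samples or FK506 3, at an adjusted p of up to 0.153. The call was also lost without a filter on low values (adjusted p = 0.0877) and with limma (adjusted p = 0.112 with log2(FPKM + 1) and with log2(FPKM + 0.1)).

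In lower glycolysis, which yields ATP and pyruvate, Gapdh, Pgk1, Pgam1, Eno1 and Pkm fell with each drug and Eno2 and Eno3 rose. Pkm (gene ID 18746, chromosome 9), pyruvate kinase of muscle and proliferating cells, was at 1539, 1456 and 1483 FPKM in Control, 452, 445 and 457 FPKM with metformin, 344, 347 and 324 FPKM with FK506 and 373, 367 and 381 FPKM with the combination. The groups did not overlap. It was 3.34-fold lower with metformin (log2 -1.74, SE 0.033, adjusted p = 6.13e-16), 5.05-fold lower with FK506 and 1.13-fold higher with the combination than with FK506. The table does not separate the M1 and M2 splice forms. Gapdh, the dehydrogenase often used as a loading control, fell from 1863 ± 32.6 FPKM in Control to 656 ± 4.31 with metformin, 338 ± 10.1 with FK506 and 384 ± 18.7 under both drugs. Pgk1, the first ATP-yielding step, fell from 1204 ± 17.4 FPKM to 557 ± 14.4, 143 ± 2.76 and 177 ± 10.9 in the same order. Pgam1, phosphoglycerate mutase, fell from 324 ± 3.79 FPKM to 97.5 ± 1.80, 72.5 ± 4.60 and 80.2 ± 2.70.

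The enolases, which make phosphoenolpyruvate, split by isoform. Eno1, the ubiquitous form, fell from 1664 ± 18.2 FPKM in Control to 500 ± 15.0 with metformin, 301 ± 9.03 with FK506 and 360 ± 16.5 under both drugs. Eno2 (gene ID 13807, chromosome 6), the neuronal form, was at 7.42, 7.79 and 7.50 FPKM in Control, 17.3, 16.2 and 17.2 FPKM with metformin, 11.5, 10.1 and 11.8 FPKM with FK506 and 18.0, 17.3 and 17.4 FPKM with the combination. Both groups with metformin were above both groups without it. The rise was 2.19-fold without FK506 (log2 1.13, SE 0.057, adjusted p = 8e-11) and 1.61-fold with it (log2 0.69, SE 0.056, adjusted p = 1.45e-07). Eno3 (gene ID 13808, chromosome 11), the muscle form, was at 7.04, 7.34 and 7.01 FPKM in Control, 11.1, 13.0 and 10.1 FPKM with metformin, 17.4, 15.9 and 13.6 FPKM with FK506 and 8.67, 9.64 and 10.1 FPKM with the combination. It rose with metformin alone (log2 0.64, SE 0.081) and fell when metformin was added to FK506 (log2 -0.53, SE 0.079, adjusted p = 8.65e-05), the reverse of most members.

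The genes for the fate of pyruvate and lactate all fell with each drug (all genes: 27.4% lower with metformin and 39.6% with FK506). Ldha (gene ID 16828, chromosome 7), the lactate dehydrogenase subunit that favours lactate, was at 1522, 1531 and 1511 FPKM in Control, 514, 526 and 505 FPKM with metformin, 266, 253 and 250 FPKM with FK506 and 288, 288 and 311 FPKM with the combination. No 2 groups overlapped, and FK506 lay lowest. It was 3.02-fold lower with metformin (log2 -1.59, SE 0.037, adjusted p = 6.18e-15) and 6.88-fold lower with FK506, and 1.17-fold higher with the combination than with FK506. The lactate exporter Slc16a3 (MCT4) went from 162 ± 1.56 FPKM in Control to 46.9 ± 2.17 with metformin, 8.41 ± 0.0886 with FK506 and 15.0 ± 0.678 under both drugs. Its sister Slc16a1 (MCT1) fell less, from 25.0 ± 0.641 FPKM to 17.1 ± 0.755 and 6.06 ± 0.271. For Slc16a1 the groups with FK506 overlapped, and the call between them (log2 0.16, adjusted p = 0.0429) was lost in 8 of the 12 fits without 1 library (without Control 2 or 3, metformin 2 or 3, FK506 2 or 3, or combination 2 or 3), at an adjusted p of up to 0.195. Pdk1 (gene ID 228026, chromosome 2), the kinase that keeps pyruvate out of mitochondria, was at 41.5, 43.3 and 43.1 FPKM in Control, 25.9, 26.3 and 26.9 FPKM with metformin, 15.7, 14.9 and 14.7 FPKM with FK506 and 17.1, 16.5 and 13.8 FPKM with the combination. The last pair of groups overlapped (log2 0.09, SE 0.060, adjusted p = 0.271), and without combination 3 that difference was 0.17 (adjusted p = 0.00344).

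Hif1a, Egln1 and Egln3 fell with each drug, while Egln2, a further HIF prolyl hydroxylase gene outside the set that was chosen after its values were seen, was at 22.2 FPKM on average in Control, 22.8 FPKM with metformin and 33.2 FPKM with FK506. Hif1a (gene ID 15251, chromosome 12) was at 176, 176 and 189 FPKM in Control, 135, 137 and 132 FPKM with metformin, 68.5, 71.9 and 71.7 FPKM with FK506 and 74.7, 80.9 and 75.0 FPKM with the combination. It was 1.35-fold lower with metformin (log2 -0.43, SE 0.044, adjusted p = 4.08e-07) and 2.90-fold lower with FK506, and no 2 groups overlapped. Its rise from FK506 to the combination (log2 0.15, adjusted p = 0.02) was lost without FK506 1, FK506 3 or combination 2, at an adjusted p of up to 0.105. The HIF-1α protein, whose stability the hydroxylases control, was not measured here. Egln3 (gene ID 112407, chromosome 12), a prolyl hydroxylase that is itself induced by HIF-1, was at 168, 168 and 164 FPKM in Control, 16.0, 13.7 and 15.2 FPKM with metformin, 4.96, 4.70 and 4.02 FPKM with FK506 and 9.60, 7.79 and 7.18 FPKM with the combination. This was the deepest fall of any member with either single drug, 11.4-fold with metformin (log2 -3.51, SE 0.082, adjusted p = 6.25e-15) and 42.2-fold with FK506, followed by a 1.82-fold rise from FK506 to the combination (log2 0.86, SE 0.093, adjusted p = 2.94e-06). Egln1, the main oxygen-sensing hydroxylase, fell from 90.3 ± 0.620 FPKM in Control to 24.6 ± 0.149 with metformin and 18.5 ± 0.229 with FK506, and stood at 24.6 ± 1.61 with the combination. Its call between metformin and the combination (log2 -0.16) turned to a rise of 0.11 (adjusted p = 0.0257) after rescaling to the T cell markers.

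All 11 HIF-1 targets outside glycolysis fell with each drug on its own (all genes: 27.4% lower with metformin and 39.6% with FK506). Bnip3 (gene ID 12176, chromosome 7), a mitophagy receptor, was at 141, 150 and 149 FPKM in Control, 20.4, 20.7 and 20.7 FPKM with metformin, 6.23, 5.82 and 6.34 FPKM with FK506 and 8.59, 9.75 and 9.68 FPKM with the combination. Its groups were fully apart, at 7.28-fold lower with metformin (log2 -2.86, SE 0.051, adjusted p = 4.02e-16), 27.8-fold lower with FK506 and 1.55-fold higher with the combination than with FK506. P4ha2 (gene ID 18452, chromosome 11), a collagen prolyl hydroxylase subunit, followed the same order, at 26.0, 26.6 and 26.2 FPKM in Control, 3.28, 3.31 and 3.78 FPKM with metformin, 1.02, 0.900 and 0.829 FPKM with FK506 and 1.48, 1.60 and 1.88 FPKM with the combination. It was 7.76-fold lower with metformin and 32.9-fold lower with FK506. Vegfa (gene ID 22339, chromosome 17), the angiogenic growth factor, was at 59.4, 58.1 and 58.9 FPKM in Control, 39.3, 37.7 and 38.2 FPKM with metformin, 1.99, 2.38 and 2.28 FPKM with FK506 and 4.11, 4.42 and 5.50 FPKM with the combination. Vegfa thus fell little with metformin (1.57-fold) and steeply with FK506 (30.7-fold, log2 -4.94, SE 0.092, adjusted p = 3.79e-17), and the combination was 2.14-fold above FK506 (log2 1.10, SE 0.098, adjusted p = 3.88e-07).

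The other targets fell 1.82-fold to 7.06-fold with metformin, leaving aside Bnip3l, Kdm3a and Mxi1. Hilpda, a lipid droplet protein, fell from 71.7 ± 1.19 FPKM in Control to 10.2 ± 0.127 with metformin, with 8.13 ± 0.270 with FK506 and 10.4 ± 1.39 under both drugs. Ankrd37, an ankyrin repeat protein, and Higd1a, a mitochondrial inner membrane protein, were 4.24-fold and 3.58-fold lower with metformin. P4ha1, which encodes another collagen prolyl hydroxylase alpha subunit, and Ndrg1, a stress-responsive gene, were 1.82-fold and 2.14-fold lower. For Higd1a the call between FK506 and the combination (log2 0.14, adjusted p = 0.0326) was lost without FK506 2, FK506 3 or any combination sample, at an adjusted p of up to 0.164.

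Bnip3l, Kdm3a and Mxi1 had other patterns over the groups. Bnip3l (NIX), the other mitophagy receptor of the set, fell from 86.6 ± 1.63 FPKM in Control to 33.6 ± 0.969 with metformin, 34.4 ± 0.127 with FK506 and 33.6 ± 2.38 under both drugs, so the 3 drug groups were close to each other. Kdm3a, a histone demethylase, fell the least of the listed HIF-1 targets outside glycolysis, from 30.1 ± 1.14 FPKM to 22.7 ± 0.646, 24.7 ± 0.215 and 24.9 ± 1.39. Its falls with FK506 (log2 -0.49) and the combination (log2 -0.46) lost their calls after rescaling to the T cell markers (adjusted p = 0.779 and adjusted p = 0.0565). Mxi1 (gene ID 17859, chromosome 19), a MYC antagonist, was at 50.0, 54.2 and 51.8 FPKM in Control, 30.7, 29.8 and 31.5 FPKM with metformin, 16.2, 17.3 and 17.4 FPKM with FK506 and 13.9, 12.5 and 13.5 FPKM with the combination. Of the listed HIF-1 targets outside glycolysis, it was the only 1 that fell when metformin was added to FK506 (log2 -0.30, SE 0.049, adjusted p = 0.0002).

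The direction of the metformin effect depended on FK506 for most of the set. These comparisons use different samples, metformin against Control and the combination against FK506. Of the 38 members, 29 were lower with metformin alone and higher when it was added to FK506, a pattern held by 663 of the 15197 genes tested (4.36%). Mxi1 and Pfkfb3 were lower in both (all genes: 5.68%), Eno2 higher in both (all genes: 6.37%), and Eno3 higher and then lower (all genes: 4.14%). Bnip3l, Slc2a3, Kdm3a and Pdk1 were lower and then not called (all genes: 17.3%), and Pfkfb4 higher and then not called (all genes: 18.1%). The difference between the metformin effects, tested as the interaction on the log2 scale, was called in all 38. It was positive in 35 (all genes: 22.5%) and negative in Eno2, Eno3 and Pfkfb4 (all genes: 24%), with a median of 1.76 against -0.02 over all genes. Rescaled to the T cell markers, it was called positive in 34 (all genes so rescaled: 13%) and negative in 3 (all genes so rescaled: 39.8%), with a median of 1.55 against -0.23 over all genes.

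**Figure D3:**
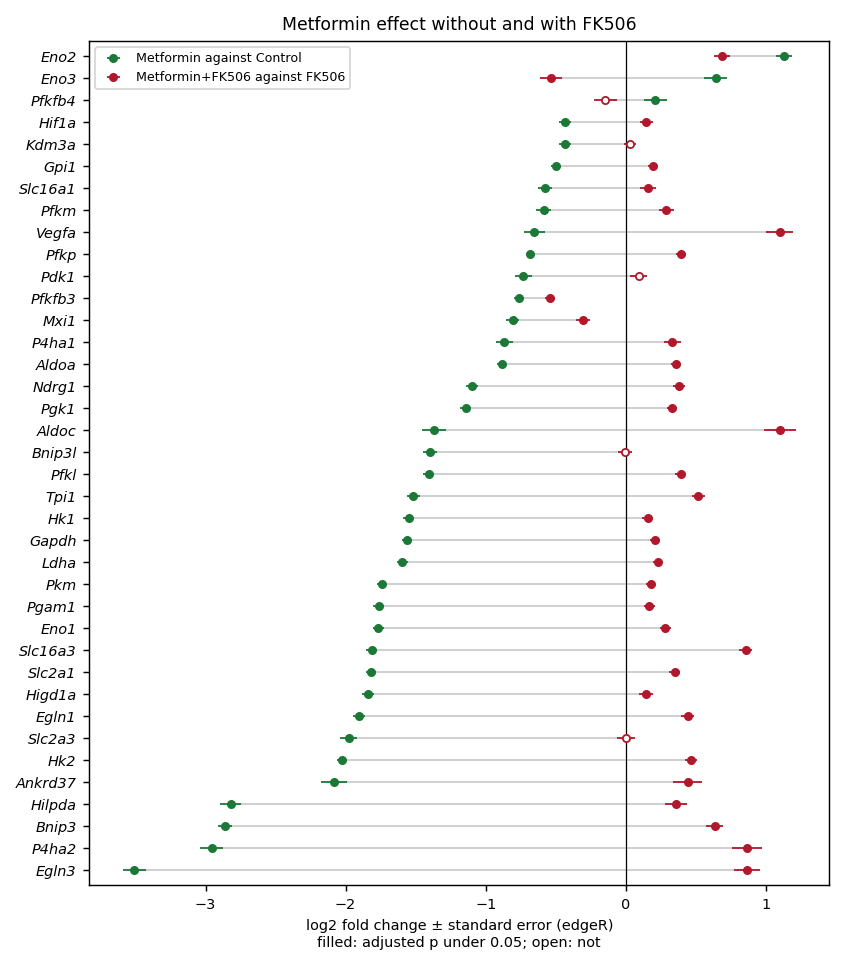
Log2 fold change with metformin without FK506 (green) and with FK506 (red) for each of the 38 genes, with bars for the standard error and open points where the adjusted p was not under 0.05. Green points lie left of 0 for 35 genes and red points right of 0, filled, for 30.

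The groups therefore fell into a common order. The mean FPKM was highest in Control, then metformin, then the combination, and lowest with FK506 in 29 of the 38 members (76.3%), against 952 of all genes tested (6.26%). In 25 members (65.8%) each step of this order was also free of overlap, against 211 genes in all (1.39%). Pfkp, Slc16a1, Pdk1 and Egln1 had the order with some overlap, and Slc2a3, Pfkfb3, Pfkfb4, Eno2, Eno3, Bnip3l, Kdm3a, Mxi1 and Hilpda did not have it. Control was the highest group for 34 members (3580 of all 15197 genes tested) and FK506 the lowest for 30 (2347 of all genes tested).

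The balance within families of related genes moved as well, given here as shares of summed FPKM, a scale per length. Slc2a1 made up 36.9% ± 0.341 of both glucose transporters in Control, 40.2% ± 1.62 with metformin, 64.2% ± 2.27 with FK506 and 69.3% ± 0.880 under both drugs. Hk2 made up 26.2% ± 0.426 of both hexokinases in Control, 20.0% ± 0.958 with metformin, 9.06% ± 0.463 with FK506 and 10.9% ± 0.406 under both drugs. Bnip3 held 62.9% ± 0.505 of the Bnip3 and Bnip3l total in Control, 38.0% ± 0.820 with metformin, 15.1% ± 0.621 with FK506 and 21.8% ± 1.36 under both drugs. In these families the gene that is known as the more inducible one, Hk2 or Bnip3, lost share with each drug. Pfkp, the platelet form of phosphofructokinase, held 61.8% ± 2.16 of its family in Control, 67.5% ± 2.26 with metformin, 45.6% ± 3.98 with FK506 and 45.8% ± 5.30 under both drugs, and its last 2 groups overlapped. Eno2 and Eno3 stayed minor, at 3.21% and 2.15% of the enolases with metformin and 3.41% and 4.76% with FK506. These shares are given as values, and no test was run on them.

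**Figure D4:**
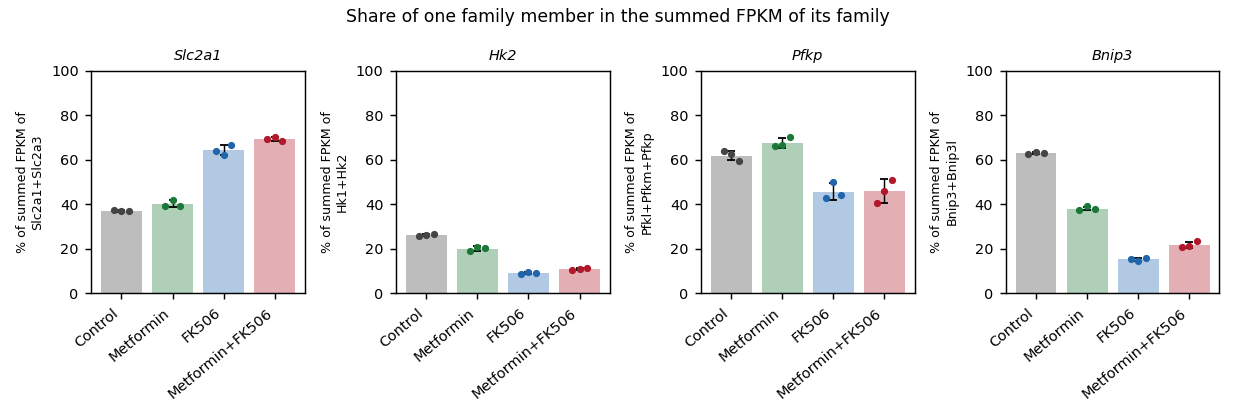
Share of Slc2a1, Hk2, Pfkp and Bnip3 in the summed FPKM of their families, with bars for the mean, error bars for the SD of 3 samples and points for samples. The Slc2a1 share rose to 64.2% with FK506, while the Bnip3 share fell from 62.9% in Control to 15.1%.

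Genes of the same pathways outside the set were also counted. Of 31 other genes of glycolysis and pyruvate metabolism, 23 were tested. With metformin 6 were lower (all genes: 27.4%) and 9 higher (all genes: 28.6%), with a median log2 of 0.04. With FK506 11 were lower (all genes: 39.6%) and 9 higher (all genes: 41.3%), with a median of -0.13. The shares lower with metformin and higher with FK506 were thus near those of all genes. From FK506 to the combination 6 were higher (all genes: 15.6%), 4 lower (all genes: 15%) and 13 not called, with a median of -0.02. Of 30 other HIF pathway genes and targets, 29 were tested. With metformin 19 were lower (all genes: 27.4%) and 4 higher (all genes: 28.6%), with a median of -0.80. With FK506 19 were lower (all genes: 39.6%) and 8 higher (all genes: 41.3%), with a median of -0.67. From FK506 to the combination 17 were higher (all genes: 15.6%), with a median of 0.23. Nos2, the inducible nitric oxide synthase, had the largest fall of the HIF list with metformin (log2 -5.39), from 1.38 FPKM on average in Control to 0.0305. Ak4, a mitochondrial adenylate kinase, fell from 19.7 FPKM in Control to 5.05 with metformin and 0.608 with FK506, and stood at 1.40 with the combination. Adm, the vasodilator adrenomedullin, fell with metformin from 1.98 to 0.374 FPKM but was at 4.98 FPKM with FK506 and 13.2 FPKM with the combination. The largest rises with FK506 in these lists were those of Hk3 (log2 7.41), a hexokinase of myeloid cells, from 0.0663 to 14.8 FPKM, and Hmox1 (log2 5.51), the heme oxygenase of macrophages among other cells, from 8.44 to 446 FPKM. Myeloid markers were also higher with FK506 than in Control, and their part in these rises was not tested.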

How the data were processed

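The authors deposited whole-number read counts per gene, not normalized, and FPKM values scaled to library size and transcript length, for 45777 genes. Per the submitters' processing notes the tools were bcl2fastq 2.20.0, Trimmomatic, HISAT2 2.1.0 and StringTie 2.1.3b, with mm10 as the build. A further 12 per-sample columns were left out. Counts were tested with edgeR 4.0.16 (glmQLFit, glmQLFTest, TMM) in R 4.3.3 with all 4 groups in 1 fit (8 residual degrees of freedom), for 15197 genes with at least 0.5 FPKM in at least 3 samples. Another 18141 genes had a count of 0 in every sample. Alternatives used DESeq2 1.42.0, limma 3.58.1 on log2(FPKM + 1) or log2(FPKM + 0.1), other factors and filters, a replicate block and leaving out each library. On simulated counts for metformin against Control, edgeR called 170 of 200 genes changed 2-fold among 15197, with 10 false calls. Far more genes were called in the data (4159 lower and 4352 higher), so these rates do not carry over to the reported calls. Replicates differed beyond counting noise (chi-square per degree of freedom of 3.98 to 15.2). Counting error only limits the precision of each sample's level. Members, lists and tests were chosen with earlier results of these data known. Every member could be named, with values per sample for the 3 largest rises and falls of each comparison and 10 core genes, and of the other pathway lists the genes named were the 3 largest rises or falls of a comparison, apart from Egln2, which was chosen after its values were seen. Gene IDs and symbols are those of the deposited table, chromosomes and promoters those of RefSeq GRCm38.p6.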

Additional observations from a re-analysis of the deposited data

Results flagged for a closer look

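Each of the 38 genes is listed because the effect of metformin in the presence of FK506 differed from its effect without FK506, by the interaction term of the edgeR fit. The values are differences of log2 fold changes, with FK506 minus without. A positive value means that metformin raised the gene more, or lowered it less, when FK506 was present. Among the glucose transporters, the difference was 2.17 for Slc2a1 and 1.98 for Slc2a3. Among the genes of upper glycolysis, the difference was 1.70 for Hk1, 2.49 for Hk2, 0.69 for Gpi1, 1.80 for Pfkl, 0.88 for Pfkm, 1.07 for Pfkp, 0.22 for Pfkfb3, -0.36 for Pfkfb4, 1.25 for Aldoa, 2.47 for Aldoc and 2.03 for Tpi1. Among the genes of lower glycolysis, the difference was 1.77 for Gapdh, 1.47 for Pgk1, 1.93 for Pgam1, 2.05 for Eno1, -0.44 for Eno2, -1.17 for Eno3 and 1.92 for Pkm. Among the lactate and pyruvate genes, the difference was 1.82 for Ldha, 0.73 for Slc16a1, 2.67 for Slc16a3 and 0.82 for Pdk1. Among the genes of HIF-1 and its feedback, the difference was 0.58 for Hif1a, 2.35 for Egln1 and 4.37 for Egln3. Among the HIF-1 targets outside glycolysis, the difference was 3.50 for Bnip3, 1.39 for Bnip3l, 1.75 for Vegfa, 2.53 for Ankrd37, 1.20 for P4ha1, 3.82 for P4ha2, 0.47 for Kdm3a, 0.50 for Mxi1, 1.48 for Ndrg1, 1.98 for Higd1a and 3.18 for Hilpda. The interaction compares changes on the log2 scale and not on the scale of levels. B cell and myeloid markers were high in both groups with FK506, and their part in these differences was not tested. The call was lost for Pfkfb3 after rescaling to the T cell markers (0.016, adjusted p = 0.828), and for Pfkfb4 without Control 3 (adjusted p = 0.055) or FK506 2 (adjusted p = 0.0567) and with limma on log2(FPKM + 1) (adjusted p = 0.0631) or log2(FPKM + 0.1) (adjusted p = 0.0668).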

How the results depend on the processing

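The counts of members called lower or higher stayed within 1.5 times those reported under every alternative run, with 1 exception. Members higher with the combination than with metformin numbered 1, but 2 with limma on log2(FPKM + 1), 2 with limma on log2(FPKM + 0.1) and 5 after rescaling to the T cell markers. That rescaling, added after the data were seen, moved the median of all genes from 0.01 to 0.11 for metformin and from 0.02 to 0.51 for FK506 against Control, the median of the members from -1.40 to -1.30 and from -2.44 to -1.96, and the share of called genes that were higher with FK506 from 51.1% to 72.6%. With limma on log2(FPKM + 1) that share was 61.3% and the all-gene median 0.19. Against FK506, the share higher with the combination went from 50.9% to 22.1% after rescaling, where 23 members were still higher.

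Changes of sign arose for 8 members, of which Egln1 and Bnip3l had been called. Pfkfb4 with FK506 against Control (-0.02 as reported) was 0.0055 with DESeq2, 0.0054 with RLE factors, 0.022 with upper quartile factors, 0.012 with a mean FPKM of at least 1, 0.25 and 0.29 with limma, 0.47 after rescaling and between -0.073 and 0.038 where 1 library was left out (above 0 without Control 1, FK506 1 or FK506 3). With the combination against Control, Pfkfb4 (-0.16 as reported, not called) was 0.12 and 0.14 with limma, called higher rescaled (0.21, adjusted p = 0.028) and called lower without combination 1 (-0.25, adjusted p = 0.00886) or without a filter (-0.22, adjusted p = 0.0349). Between the combination and metformin, Eno2 was 0.054 and 0.056 with limma and 0.17 rescaled, but was called lower without a filter (-0.14, adjusted p = 0.0494). Kdm3a was 0.13 and 0.13 with limma, 0.25 rescaled and from -0.056 to 0.018 (without combination 3) with 1 library left out. Hilpda was 0.016 and 0.017 with limma and 0.14 rescaled. Egln1 (-0.16 as reported, adjusted p = 0.00369) and Bnip3l (-0.16, adjusted p = 0.00754) were called higher rescaled, at 0.11 (adjusted p = 0.0257) and 0.12 (adjusted p = 0.0433). Both lost their calls with limma (adjusted p = 0.967 and adjusted p = 0.962 with log2(FPKM + 1)). Between the combination and FK506, Slc2a3 was -0.0079 with DESeq2, -0.0093 with RLE factors, -0.0047 with upper quartile factors, -0.019 without a filter, -0.0038 and -0.0040 with limma, -0.10 rescaled and from -0.075 (without combination 3) to 0.053 with 1 library left out. In the same comparison Bnip3l ranged from -0.089 to 0.026 with 1 library left out (above 0 without combination 1 or 3), Kdm3a from -0.011 (without combination 1) to 0.063, with -0.077 rescaled, and Pdk1 was -0.015 rescaled. The causes were not tested.

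The replicate numbers gave no sign of pairing the samples. Deviations of same-numbered samples correlated at between -0.072 and 0.050 over 18 pairs, and those of other numbers at between -0.064 and 0.073 over 36. In every other group at once, 0 of 12 samples correlated best with its own number. Some samples did so in a single group, such as Control 2 with metformin 2 (0.044). With the replicate block, 28 members were higher with the combination than with FK506 in place of 30, without Slc16a1 (adjusted p = 0.0528) and Higd1a (adjusted p = 0.0514). Shares of counts in place of FPKM, which are not per length, gave Slc2a1 27.2%, 29.4%, 53.4% and 59.2% in Control, metformin, FK506 and the combination, Hk2 32.1%, 25.4%, 11.7% and 14.1%, Pfkp 72.8%, 80.0%, 63.6% and 63.9%, and Bnip3 47.9%, 24.9%, 8.81% and 13.1%.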
